A study of Rattus norvegicus with 18 samples.

Results

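The genes described here are the S phase machinery of rat liver: 35 genes for DNA replication and for the supply of its nucleotide building blocks, named as a list and grouped here by role. A probe on the array could be matched to 33 of the 35 by RefSeq accession, and all 33 passed the filter on dim probes, among 10914 genes tested. Of these 28 were well above background in all 3 rats of a control group, and Orc1, Orc6, Cdc6, Cdt1 and Pola1 passed through treated groups alone, so that a rise in them is partly set by the filter. Mcm5 and Chaf1a had no matched probe and were not analysed. Each gene is represented by the probe with the highest mean over all arrays.

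Liver RNA came from male F344/NSlc rats, bought at 5 weeks of age and kept for 1 week on basal diet before dosing. The 6 groups of 3 rats were CCl4 at day 84, DEN at day 84, control at day 84, CCl4 at day 28, DEN at day 28 and control at day 28. CCl4 rats were gavaged every day with carbon tetrachloride at 100 mg per kg body weight in corn oil, and DEN rats with diethylnitrosamine at 4 mg per kg in saline, both in 5 mL per kg, for 28 or 84 days. CCl4 is a hepatotoxin generally classed as non-genotoxic, whereas DEN is activated in hepatocytes to a product that alkylates DNA, and both give rise to liver tumours in rodents. The protocol describes the controls as untreated rats on basal diet while their titles call them vehicle, so differences from control include dosing and solvent, which cannot be told apart from the compound. The general design text names 28 days alone, and the day 84 arrays take their group from their own titles. Every group is whole liver from rats of 1 strain and sex, and no mutation or transgene is named.

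Replication origins are licensed when the origin recognition complex (Orc1, Orc6), Cdc6 and Cdt1 load the ring of MCM proteins, which becomes an active helicase once Cdc45, the GINS complex and Mcm10 join it. Polymerases then copy the strands, held by the sliding clamp Pcna, while ribonucleotide reductase, thymidylate synthase and thymidine kinase supply the precursors. Most of these genes are transcribed late in G1 and in S phase under E2F transcription factors, and they are little used in resting adult liver, whose hepatocytes re-enter the cycle after injury.

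Since E2F factors act through short promoter words, the promoters were searched for them and are shown for 6 genes. RefSeq promoter sequences (build GRCr8) were matched for 31 of the 35 genes, and Orc1, Cdc6, Mcm4 and Rrm2 had no entry. The 250 bases before each start were searched on both strands for the E2F words TTTCGCGC, TTTGGCGC, TTTCCCGC and TTTGCCGC, which can overlap each other. At least 1 word was present in 8 of 31 promoters (25.8%), against 1.73% of all 33469 promoters of the same length. The 8 genes were Mcm2, Mcm5, Mcm6, Mcm7, Gins1, Pola1, Ung and Tyms. CCAAT stood in 18 of 31 (58.1%) against 34.0% of all promoters, and TTTGAA or TTCGAA, the cell cycle homology words, in 5 of 31 (16.1%) against 17.4%. The median GC content was 58.8% in the 31 promoters and 51.2% over all. The first 4 sequences carry E2F words and belong to genes of the MCM and GINS helicase, and the last 2 belong to the genes that moved against the rest in the expression data. Capitals mark the E2F words, each sequence runs 5′ to 3′ on the gene's strand, and base -1 is the last base shown.
Mcm2 (chr4:122918095-122918344, minus strand): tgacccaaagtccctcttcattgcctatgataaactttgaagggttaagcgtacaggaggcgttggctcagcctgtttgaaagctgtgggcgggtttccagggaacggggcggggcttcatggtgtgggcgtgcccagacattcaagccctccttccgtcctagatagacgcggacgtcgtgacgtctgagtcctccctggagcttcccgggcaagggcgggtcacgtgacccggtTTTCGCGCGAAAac
Mcm6 (chr13:42404353-42404602, minus strand): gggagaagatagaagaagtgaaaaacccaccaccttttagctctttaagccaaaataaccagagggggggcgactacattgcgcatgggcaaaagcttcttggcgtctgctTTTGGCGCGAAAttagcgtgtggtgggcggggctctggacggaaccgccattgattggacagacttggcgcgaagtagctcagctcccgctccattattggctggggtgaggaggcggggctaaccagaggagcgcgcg
Mcm7 (chr12:22163179-22163428, minus strand): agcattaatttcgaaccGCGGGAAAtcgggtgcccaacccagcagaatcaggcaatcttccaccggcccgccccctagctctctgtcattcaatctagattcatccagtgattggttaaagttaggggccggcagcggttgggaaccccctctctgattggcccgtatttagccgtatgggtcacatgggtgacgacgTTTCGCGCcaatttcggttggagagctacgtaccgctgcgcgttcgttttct
Gins1 (chr3:160184670-160184919, plus strand): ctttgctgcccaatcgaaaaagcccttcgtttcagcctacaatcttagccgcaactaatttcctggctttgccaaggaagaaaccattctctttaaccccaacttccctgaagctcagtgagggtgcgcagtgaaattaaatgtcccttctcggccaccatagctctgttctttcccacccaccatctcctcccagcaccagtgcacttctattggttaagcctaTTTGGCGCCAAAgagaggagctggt
Mcm10 (chr17:78175137-78175386, plus strand): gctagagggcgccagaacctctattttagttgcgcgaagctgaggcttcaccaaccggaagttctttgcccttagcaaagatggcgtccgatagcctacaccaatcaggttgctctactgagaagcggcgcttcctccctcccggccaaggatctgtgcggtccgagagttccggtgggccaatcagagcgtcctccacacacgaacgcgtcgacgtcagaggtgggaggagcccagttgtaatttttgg
Ung (chr12:48154046-48154295, minus strand): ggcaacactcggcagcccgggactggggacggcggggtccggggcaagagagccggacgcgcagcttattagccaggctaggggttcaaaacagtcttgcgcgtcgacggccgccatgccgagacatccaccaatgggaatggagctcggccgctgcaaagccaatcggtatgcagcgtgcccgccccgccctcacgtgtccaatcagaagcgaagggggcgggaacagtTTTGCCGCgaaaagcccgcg
Mcm2 has a word on each strand, overlapping at bases -14 to -7 and -10 to -3. Mcm6 has such an overlapping pair at -139 to -132 and -135 to -128, and Gins1 at -25 to -18 and -21 to -14. In Mcm7 the words lie apart, at -233 to -226 and -52 to -45. Ung carries 1 word, at -20 to -13, and the Mcm10 window holds none of these letters. A match is a description of the sequence and says nothing about binding in these livers.

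Arrays were 1-colour Agilent arrays hybridised with 1 liver each. Between 47.2% and 57.0% of probes were well above background per array, and arrays of 1 group correlated at 0.976 to 0.996. The 75th percentile of the processed signal was 215 to 325 on treated and 170 to 181 on control arrays at day 28, and 245 to 321 on treated and 197 to 207 on control arrays at day 84. Levels below are scaled signals, the processed signal divided by that percentile on the same array, and carry no unit. They compare arrays for 1 gene and do not compare genes. Differences are log2 values ± SE from a limma fit over all 18 arrays, 3 rats a group, and a gene is called when its Benjamini-Hochberg adjusted p over the 10914 genes is under 0.05. A difference in whole tissue can come from more cells of a type or from more RNA per cell, which cannot be told apart. The array number, 3 a group, limits the precision.

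CCl4 at day 28 raised nearly the whole replication set. Of the 33 genes, 30 rose and 2 fell, where 26.1% of all genes tested rose and 33.6% fell (59.7% in either direction). The median difference over the 33 was 1.53, against -0.06 over all genes. DEN at day 28 raised 7 and lowered 1, with 7.82% of all genes higher and 7.19% lower (15.0% in either direction), and a median of 0.30 against -0.04. By day 84 DEN raised 26 of the 33 and lowered 2 (all genes 21.6% higher, 31.1% lower, 52.7% in either direction), with a median of 0.57 against -0.08. CCl4 at day 84 raised 29 and lowered 1 (all genes 28.0% higher, 36.3% lower, 64.3% in either direction), with a median of 1.10 against -0.10. With the genes that had no array well above background in one group set at their lower bound, or at 0 where none could be given, the medians were 1.44, 0.22, 0.57 and 1.01 for CCl4 and DEN at day 28, DEN at day 84 and CCl4 at day 84. Among the 28 genes that passed the filter in a control group, 26, 5, 23 and 25 rose and 2, 1, 2 and 1 fell in those comparisons.

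The groups often did not overlap. All 3 CCl4 arrays lay above all 3 control arrays for 30 genes at day 28 (26.1% of all genes) and for 29 genes at day 84 (31.0%), and below for 2 (34.6%) and 1 (40.8%). All 3 DEN arrays did so for 16 genes at day 28 (17.0%) and for 27 at day 84 (26.3%), and lay below for 2 at day 28 (25.8%) and 2 at day 84 (38.6%). The CCl4 genes above control on both days include Orc1, Orc6, Cdc6 and Cdt1, which passed the filter through treated groups alone. Cdc6 and Cdt1 are also among the DEN genes above control on both days, and Orc1 at day 84. Their separation is partly set by the filter, and the spike-in counts below include them too. Scaling on the 8 spike-in probes in place of the 75th percentile moved the median of all genes to 0.36, 0.74, 0.63 and 0.45 for DEN at day 28, CCl4 at day 28, DEN at day 84 and CCl4 at day 84. The counts of genes that rose and fell were then 21 and 0, 31 and 0, 29 and 0, and 31 and 1, where 32.6%, 74.3%, 68.7% and 53.8% of all genes were higher and 0.641%, 4.60%, 2.68% and 6.63% lower. The median of the set then lay at 0.70, 2.33, 1.28 and 1.65, above that of all genes each time.

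**Figure D1:**
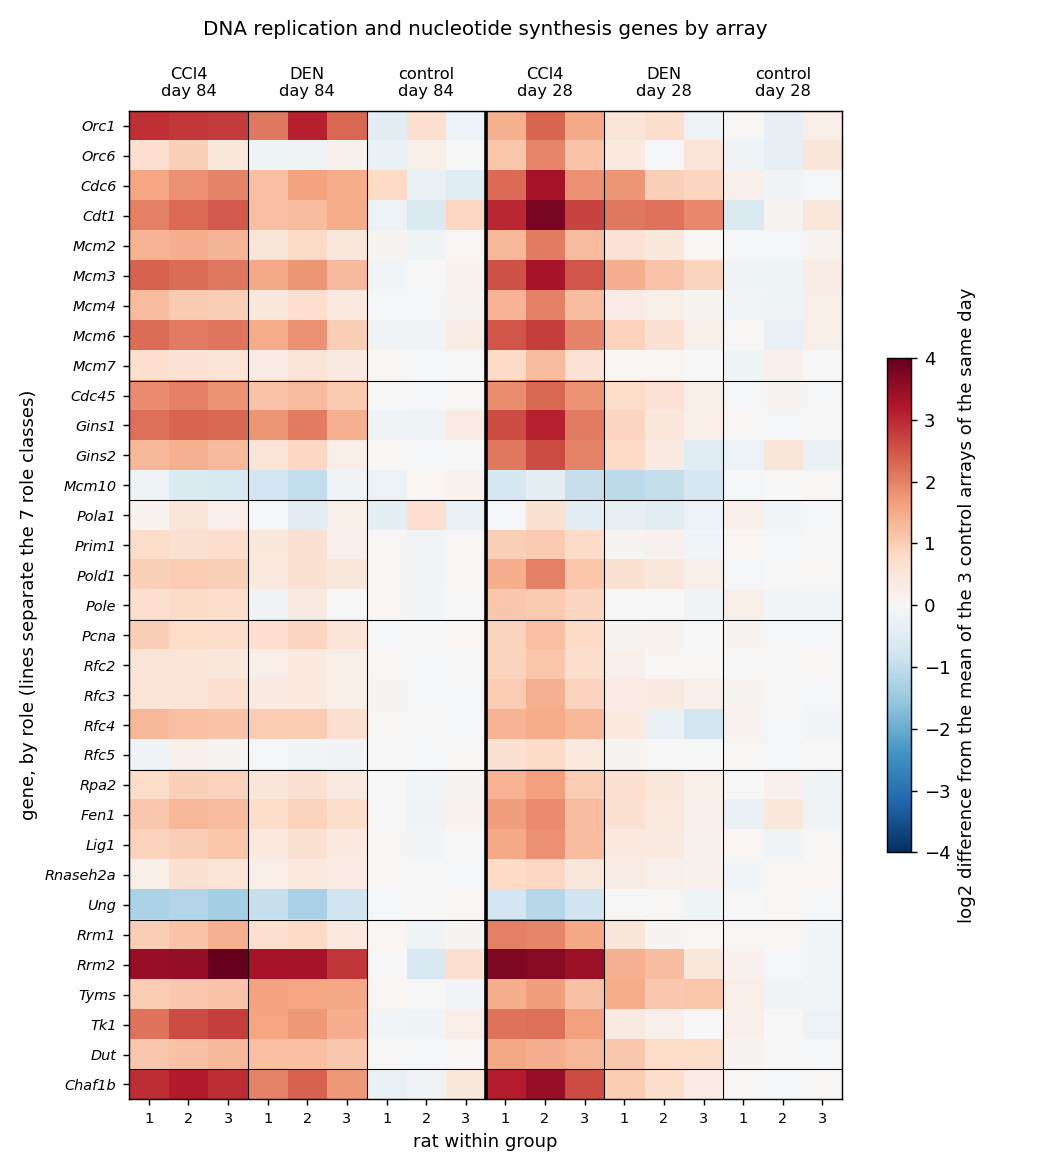
Heat map of the 33 genes (vertical axis, by role) in the 18 arrays (horizontal axis, rats 1 to 3 of each group), coloured by the log2 difference from the mean of the 3 control arrays of the same day. CCl4 columns are red for nearly all genes at both days, DEN columns mainly at day 84, and Ung and Mcm10 stand out in blue.

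Of the origin licensing genes, the 5 MCM genes rose in CCl4 livers on both days, by 0.87 to 2.79 at day 28 and 0.60 to 2.23 at day 84 on the log2 scale. Orc1, Orc6, Cdc6 and Cdt1 were called higher in CCl4 on both days as well, but they are the 4 genes of the class that passed the filter through treated groups alone, and most of their values are bounds. In DEN livers Cdc6, Cdt1 and Mcm3 were called higher at day 28, and all but Orc6 at day 84. Cdt1 is the loading factor that is destroyed once S phase starts. At day 28 Cdt1 had scaled signals of 0.237, 0.407 and 0.188 in CCl4 livers, 0.125, 0.131 and 0.109 in DEN livers, and 0.0197, 0.0315 and 0.0397 in control livers. At day 84 Cdt1 had 0.311, 0.373 and 0.421 in CCl4 livers, 0.179, 0.188 and 0.217 in DEN livers, and 0.0658, 0.0518 and 0.137 in control livers. The groups separated fully on both days, in the order CCl4, DEN, control. No control array at day 28 and 1 of 3 at day 84 was well above background for Cdt1, so at day 28 only bounds can be given: at least 3.17-fold higher in CCl4 (adjusted p = 4.70e-06) and at least 1.47-fold higher in DEN livers (adjusted p = 0.00153). Such a bound sets the group's mean against the lowest well-measured signal of each dim array, or the probe's own signal where higher. Here and below, an adjusted p beside a bound belongs to the limma difference of the measured signals, dim ones included. The bound itself was not tested. The fitted log2 differences were 2.24 ± 0.34 for CCl4 (adjusted p = 6.81e-05) and 1.32 ± 0.34 for DEN (adjusted p = 0.00525) at day 84. The second Cdt1 probe gave -0.09 for DEN at day 28, and 1.97, 1.59 and 2.40 for CCl4 at day 28, DEN at day 84 and CCl4 at day 84.

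Orc1 is the ATP-binding subunit of the origin recognition complex. At day 28 Orc1 had scaled signals of 0.0931, 0.175 and 0.0983 in CCl4 livers, 0.0496, 0.0568 and 0.0302 in DEN livers, and 0.0357, 0.0279 and 0.0421 in control livers. At day 84 Orc1 had 0.153, 0.143 and 0.138 in CCl4 livers, 0.0864, 0.171 and 0.0972 in DEN livers, and 0.0149, 0.0315 and 0.0170 in control livers. At day 28 the CCl4 arrays stood above both other groups, which overlapped. At day 84 the CCl4 and DEN arrays overlapped and both stood above control. Controls of both days and DEN at day 28 had no array well above background for Orc1. It was at least 1.41-fold higher in CCl4 at day 28 (adjusted p = 0.000522), at least 1.53-fold in DEN at day 84 (adjusted p = 5.23e-05) and at least 1.96-fold in CCl4 at day 84 (adjusted p = 8.40e-06).

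Orc6, a small subunit of the same complex, was the licensing gene that was not called in DEN livers at day 84 (-0.04 ± 0.26, adjusted p = 0.897). At day 28 Orc6 had scaled signals of 0.120, 0.219 and 0.124 in CCl4 livers, 0.0734, 0.0534 and 0.0801 in DEN livers, and 0.0499, 0.0450 and 0.0790 in control livers. At day 84 Orc6 had 0.108, 0.132 and 0.0911 in CCl4 livers, 0.0602, 0.0613 and 0.0770 in DEN livers, and 0.0570, 0.0806 and 0.0679 in control livers. CCl4 arrays stood above all others on both days, and DEN overlapped control on both. No control array was well above background for Orc6, and CCl4 was at least 1.75-fold higher at day 28 (adjusted p = 0.000393) and at least 1.44-fold higher at day 84 (adjusted p = 0.0325). The day 84 call ended when any of 4 arrays was left out.

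Cdc6, the ATPase that loads the MCM ring, had scaled signals close to background in controls of both days, with no control array well above it. At day 28 Cdc6 had scaled signals of 0.123, 0.256 and 0.0914 in CCl4 livers, 0.0876, 0.0499 and 0.0461 in DEN livers, and 0.0293, 0.0233 and 0.0245 in control livers. At day 84 Cdc6 had 0.128, 0.152 and 0.169 in CCl4 livers, 0.100, 0.131 and 0.121 in DEN livers, and 0.0743, 0.0349 and 0.0309 in control livers. The groups separated at day 28, and at day 84 CCl4 and DEN overlapped while both stood above control. Cdc6 was at least 1.72-fold higher in CCl4 at day 28 (adjusted p = 6.78e-05), at least 1.54-fold in DEN at day 84 (adjusted p = 0.00521) and at least 1.97-fold in CCl4 at day 84 (adjusted p = 0.000759). In DEN livers at day 28 only 1 of 3 arrays was well above background, no bound above 1 could be given, and the call (adjusted p = 0.0434) ended when any of 14 arrays was left out. The second Cdc6 probe gave 0.10 for DEN at day 28, and 1.69, 1.69 and 2.11 for CCl4 at day 28, DEN at day 84 and CCl4 at day 84. With background corrected by normexp and an offset of 50 before scaling, the values of the dimmest licensing probes turned: Orc1 to -0.03 and Orc6 to -0.05 for CCl4 at day 28, Orc6 to -0.14 for CCl4 at day 84, and Cdc6 to -0.11 and -0.09 for DEN at day 28 and day 84.

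The MCM helicase subunits were well above background in every group, except Mcm6 on 1 control array at day 28. At day 28 Mcm3 had scaled signals of 3.94, 6.63 and 3.80 in CCl4 livers, 1.82, 1.47 and 1.25 in DEN livers, and 0.602, 0.601 and 0.833 in control livers. At day 84 Mcm3 had 4.39, 4.004 and 3.70 in CCl4 livers, 2.47, 2.92 and 2.12 in DEN livers, and 0.791, 0.842 and 0.942 in control livers. For Mcm3 the groups separated on both days, CCl4 above DEN above control. It rose by 2.79 ± 0.21 in CCl4 (adjusted p = 2.27e-07) and by 1.16 ± 0.21 in DEN (adjusted p = 0.00263) at day 28, and by 2.23 ± 0.21 (adjusted p = 1.11e-06) and 1.54 ± 0.21 (adjusted p = 5.04e-05) at day 84. Its 3 other probes gave 0.73 to 1.04 for DEN at day 28. Mcm7 had the smallest difference of the 5 in CCl4 livers. At day 28 Mcm7 had scaled signals of 8.90, 12.3 and 7.73 in CCl4 livers, 5.43, 5.43 and 5.12 in DEN livers, and 4.54, 5.92 and 5.14 in control livers. At day 84 Mcm7 had 8.74, 8.28 and 8.04 in CCl4 livers, 6.96, 7.81 and 7.13 in DEN livers, and 5.82, 5.25 and 5.51 in control livers. CCl4 stood above the other groups on both days, and DEN lay within the control range at day 28 and above it at day 84. Mcm7 rose by 0.87 ± 0.14 (adjusted p = 9.74e-05) and 0.60 ± 0.14 (adjusted p = 0.00158) in CCl4 livers at day 28 and day 84, and by 0.40 ± 0.14 in DEN livers at day 84 (adjusted p = 0.0238). Mcm2, Mcm4 and Mcm6 rose by 1.55 to 2.43 in CCl4 at day 28, by 1.10 to 2.16 in CCl4 at day 84 and by 0.49 to 1.42 in DEN at day 84. At DEN day 28 their values were 0.22 to 0.59, none called. Beside these stand the 2 promoters with overlapping E2F words (Mcm2, Mcm6), and the Mcm7 promoter with 2 words. The promoter of Mcm3, which had the largest difference of the 5 in CCl4 livers, held none of these words, and Mcm4 had no promoter entry. A link between the words and the differences was not tested.

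The helicase assembly genes split. Cdc45 rose in 4 comparisons with control, Gins1 in 3 and Gins2 in 2, and Mcm10 fell in 3. Gins1, a subunit of the GINS complex that holds the helicase together, had the largest difference in CCl4 at day 28 and in DEN on both days among the 3 genes of the class other than Gins2, whose day 28 controls were not well above background. At day 28 Gins1 had scaled signals of 2.44, 3.38 and 1.70 in CCl4 livers, 0.728, 0.545 and 0.482 in DEN livers, and 0.409, 0.382 and 0.403 in control livers. At day 84 Gins1 had 1.57, 1.70 and 1.67 in CCl4 livers, 1.15, 1.43 and 0.914 in DEN livers, and 0.311, 0.297 and 0.423 in control livers. All 3 groups separated on both days. Gins1 rose by 2.60 ± 0.23 (adjusted p = 8.96e-07) and 2.28 ± 0.23 (adjusted p = 2.06e-06) in CCl4 livers at day 28 and day 84 and by 1.75 ± 0.23 in DEN livers at day 84 (adjusted p = 3.79e-05), with 0.54 ± 0.23 in DEN at day 28 not called (adjusted p = 0.124).

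Cdc45, the factor that joins MCM and GINS into the active helicase, was the one gene of the 4 that rose in all 4 comparisons with control. At day 28 Cdc45 had scaled signals of 3.58, 4.88 and 3.46 in CCl4 livers, 1.66, 1.49 and 1.16 in DEN livers, and 0.951, 1.08 and 0.955 in control livers. At day 84 Cdc45 had 3.81, 4.13 and 3.57 in CCl4 livers, 2.26, 2.47 and 2.10 in DEN livers, and 1.02, 0.995 and 1.05 in control livers. The order CCl4, DEN, control held without overlap on both days. Cdc45 rose by 1.98 ± 0.14 (adjusted p = 1.40e-07) and 0.52 ± 0.14 (adjusted p = 0.0245) in CCl4 and DEN livers at day 28, and by 1.90 ± 0.14 (adjusted p = 1.69e-07) and 1.15 ± 0.14 (adjusted p = 2.17e-05) at day 84. The DEN call at day 28 ended without control rat 1 or 3 or DEN rat 1 or 2 (adjusted p up to 0.112).

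Gins2, another GINS subunit, had no control array well above background at day 28. At day 28 Gins2 had scaled signals of 0.214, 0.301 and 0.194 in CCl4 livers, 0.0861, 0.0632 and 0.0354 in DEN livers, and 0.0421, 0.0692 and 0.0410 in control livers. At day 84 Gins2 had 0.230, 0.244 and 0.227 in CCl4 livers, 0.131, 0.161 and 0.111 in DEN livers, and 0.0954, 0.0888 and 0.0912 in control livers. CCl4 arrays stood above DEN and control on both days, and DEN overlapped control at day 28. It was at least 2.80-fold higher in CCl4 at day 28 (adjusted p = 1.56e-05) and rose by 1.35 ± 0.28 in CCl4 at day 84 (adjusted p = 0.000755), while 0.53 ± 0.28 in DEN at day 84 was not called (adjusted p = 0.120) though its 3 arrays lay above control.

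Mcm10, a helicase cofactor needed to start unwinding, went the other way. At day 28 Mcm10 had scaled signals of 0.779, 0.964 and 0.664 in CCl4 livers, 0.614, 0.647 and 0.795 in DEN livers, and 1.23, 1.27 and 1.30 in control livers. At day 84 Mcm10 had 0.786, 0.628 and 0.579 in CCl4 livers, 0.540, 0.463 and 0.817 in DEN livers, and 0.777, 0.962 and 1.01 in control livers. At day 28 all treated arrays lay below all control arrays, and at day 84 one CCl4 and one DEN array reached into the control range. Mcm10 fell by 0.89 ± 0.20 on the log2 scale in DEN (adjusted p = 0.00878) and by 0.67 ± 0.20 in CCl4 livers (adjusted p = 0.00896) at day 28, and by 0.63 ± 0.20 in DEN at day 84 (adjusted p = 0.0157). CCl4 at day 84 was at -0.47 ± 0.20 (adjusted p = 0.0505), not called. With spike-in scaling none of these falls was called: the values were -0.49 for DEN at day 28 (adjusted p = 0.139), and 0.13 for CCl4 at day 28 (adjusted p = 0.658) and 0.08 for DEN at day 84 (adjusted p = 0.803), the last 2 on the other side of 0. The DEN call at day 84 ended without control rat 2 or 3 or DEN rat 1 or 2.

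Of the polymerase genes, Prim1, Pold1 and Pole rose in CCl4 livers on both days, and Prim1 and Pold1 rose in DEN livers at day 84. None of the 4 was called in DEN livers at day 28. Pold1, the catalytic subunit of the lagging-strand polymerase delta, had the largest difference in CCl4 at day 28 and in DEN on both days among the 3 other than Pola1, which was dim in controls. At day 28 Pold1 had scaled signals of 3.11, 4.56 and 2.45 in CCl4 livers, 1.73, 1.53 and 1.33 in DEN livers, and 1.08, 1.15 and 1.16 in control livers. At day 84 Pold1 had 2.75, 2.88 and 2.74 in CCl4 livers, 1.86, 2.17 and 1.95 in DEN livers, and 1.48, 1.33 and 1.47 in control livers. The groups separated on both days, CCl4 highest. Pold1 rose by 1.53 ± 0.17 (adjusted p = 4.89e-06) and 0.97 ± 0.17 (adjusted p = 0.000167) in CCl4 at day 28 and day 84 and by 0.48 ± 0.17 in DEN at day 84 (adjusted p = 0.0256), the last call ending without control rat 2 or DEN rat 2. Prim1, the primase subunit that makes the RNA primers, rose by 0.92 ± 0.10 in CCl4 at day 28 (adjusted p = 8.03e-06).

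Pole, the catalytic subunit of the leading-strand polymerase epsilon, responded to CCl4 and was not called with DEN. At day 28 Pole had scaled signals of 0.400, 0.390 and 0.344 in CCl4 livers, 0.193, 0.187 and 0.173 in DEN livers, and 0.222, 0.176 and 0.174 in control livers. At day 84 Pole had 0.257, 0.274 and 0.266 in CCl4 livers, 0.147, 0.209 and 0.159 in DEN livers, and 0.173, 0.151 and 0.165 in control livers. On both days the CCl4 arrays stood above all others and DEN overlapped control. Pole rose by 0.99 ± 0.12 (adjusted p = 1.60e-05) and 0.71 ± 0.12 (adjusted p = 0.000210) in CCl4, with -0.04 ± 0.12 (adjusted p = 0.850) and 0.06 ± 0.12 (adjusted p = 0.709) in DEN at day 28 and day 84. The direct difference of CCl4 over DEN was 1.04 ± 0.12 at day 28 (adjusted p = 2.79e-05) and 0.65 ± 0.12 at day 84 (adjusted p = 0.00136). Pola1, the catalytic subunit of polymerase alpha, could not be followed with this probe. At day 28 Pola1 had scaled signals of 0.0542, 0.0887 and 0.0433 in CCl4 livers, 0.0461, 0.0430 and 0.0493 in DEN livers, and 0.0665, 0.0534 and 0.0543 in control livers. At day 84 Pola1 had 0.0586, 0.0747 and 0.0608 in CCl4 livers, 0.0507, 0.0391 and 0.0619 in DEN livers, and 0.0407, 0.0835 and 0.0435 in control livers. No array of either control group or of DEN at day 28 was well above background for Pola1, and none of the 4 comparisons was called.

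Clamp and clamp loader genes rose in CCl4 livers at day 28, all 5, by 0.58 to 1.40. In CCl4 and in DEN livers at day 84 the 4 called genes were Pcna, Rfc2, Rfc3 and Rfc4, and none was called in DEN livers at day 28. Rfc4, a subunit of the clamp loader, had the largest difference of the 5 in CCl4 at day 28 and in DEN at day 84. At day 28 Rfc4 had scaled signals of 0.650, 0.684 and 0.615 in CCl4 livers, 0.321, 0.202 and 0.148 in DEN livers, and 0.271, 0.241 and 0.230 in control livers. At day 84 Rfc4 had 0.473, 0.439 and 0.417 in CCl4 livers, 0.383, 0.382 and 0.293 in DEN livers, and 0.196, 0.191 and 0.180 in control livers. CCl4 arrays stood apart on both days, while DEN arrays spread widely around the control range at day 28 and lay above it at day 84. Rfc4 rose by 1.40 ± 0.20 (adjusted p = 4.71e-05) and 1.23 ± 0.20 (adjusted p = 0.000112) in CCl4 at day 28 and day 84 and by 0.89 ± 0.20 in DEN at day 84 (adjusted p = 0.00213), with -0.22 ± 0.20 in DEN at day 28 (adjusted p = 0.483).

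Pcna, the sliding clamp itself, rose by 0.97 ± 0.12 in CCl4 at day 28 (adjusted p = 1.16e-05), 0.81 ± 0.12 in CCl4 at day 84 (adjusted p = 4.31e-05) and 0.68 ± 0.12 in DEN at day 84 (adjusted p = 0.000331). At day 28 Pcna had scaled signals of 4.82, 5.997 and 4.53 in CCl4 livers, 2.81, 2.87 and 2.61 in DEN livers, and 2.82, 2.52 and 2.44 in control livers. At day 84 Pcna had 4.85, 4.03 and 4.01 in CCl4 livers, 3.88, 4.46 and 3.48 in DEN livers, and 2.34, 2.43 and 2.58 in control livers. At day 28 the DEN and control arrays overlapped, and at day 84 DEN overlapped CCl4 and stood above control. Rfc3, another loader subunit, had the largest DEN value of the class at day 28, 0.30 ± 0.11, not called (adjusted p = 0.0846). At day 28 Rfc3 had scaled signals of 5.003, 6.58 and 4.60 in CCl4 livers, 3.10, 3.16 and 2.80 in DEN livers, and 2.65, 2.42 and 2.31 in control livers. At day 84 Rfc3 had 4.03, 4.02 and 4.29 in CCl4 livers, 3.54, 3.65 and 3.25 in DEN livers, and 2.98, 2.67 and 2.67 in control livers. The 3 groups were in the order CCl4, DEN, control without overlap on both days. Rfc3 rose by 1.12 ± 0.11 in CCl4 at day 28 (adjusted p = 2.52e-06).

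Rfc5, another small subunit of the same loader, rose in CCl4 livers at day 28 and in no other comparison with control. At day 28 Rfc5 had scaled signals of 2.64, 2.93 and 2.25 in CCl4 livers, 1.85, 1.72 and 1.70 in DEN livers, and 1.78, 1.69 and 1.71 in control livers. At day 84 Rfc5 had 1.83, 2.35 and 2.17 in CCl4 livers, 1.91, 1.86 and 1.84 in DEN livers, and 2.07, 1.93 and 2.09 in control livers. At day 28 CCl4 arrays stood above the rest, and at day 84 CCl4 overlapped both groups and all DEN arrays lay below control. The differences were 0.58 ± 0.10 at day 28 (adjusted p = 0.000175) and 0.05 ± 0.10 at day 84 (adjusted p = 0.649) for CCl4, and 0.02 ± 0.10 (adjusted p = 0.902) and -0.12 ± 0.10 (adjusted p = 0.334) for DEN. With spike-in scaling Rfc5 was called higher in every comparison with control. The values were 0.43 and 0.59 for DEN at day 28 and day 84 (adjusted p = 0.0416 and 0.00298). For CCl4 they were 1.38 and 0.60 (adjusted p = 1.93e-06 and 0.00292). The median of all genes was then 0.36 and 0.63 for DEN and 0.74 and 0.45 for CCl4. The second Rfc5 probe gave 0.71 and 0.02 for CCl4 at day 28 and day 84.

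Of the genes for single-strand binding and Okazaki fragments, Rpa2, Fen1, Lig1 and Rnaseh2a rose in CCl4 livers on both days and in DEN livers at day 84, and none was called in DEN livers at day 28. Fen1, the flap endonuclease that trims Okazaki fragments, had the largest difference of the class in CCl4 at day 28 and in DEN at day 84. At day 28 Fen1 had scaled signals of 20.3, 23.8 and 14.96 in CCl4 livers, 9.73, 8.50 and 7.40 in DEN livers, and 5.30, 8.52 and 5.86 in control livers. At day 84 Fen1 had 12.5, 14.9 and 14.4 in CCl4 livers, 10.02, 11.1 and 9.61 in DEN livers, and 5.95, 5.40 and 6.60 in control livers. DEN overlapped control at day 28, and the 3 groups separated at day 84. Fen1 rose by 1.59 ± 0.18 (adjusted p = 8.69e-06) and 1.22 ± 0.18 (adjusted p = 6.22e-05) in CCl4 at day 28 and day 84 and by 0.78 ± 0.18 in DEN at day 84 (adjusted p = 0.00303). Rpa2, a subunit of the single-strand binding protein RPA, had the largest DEN value of the class at day 28, 0.45 ± 0.15, not called (adjusted p = 0.0560). At day 28 Rpa2 had scaled signals of 4.31, 5.12 and 3.30 in CCl4 livers, 2.56, 2.25 and 1.96 in DEN livers, and 1.62, 1.87 and 1.47 in control livers. At day 84 Rpa2 had 3.05, 3.54 and 3.46 in CCl4 livers, 2.59, 2.79 and 2.34 in DEN livers, and 1.84, 1.70 and 1.98 in control livers. Its groups kept the order CCl4, DEN, control without overlap on both days. Lig1, the ligase that seals Okazaki fragments, rose by 1.53 ± 0.12 and Rnaseh2a, a subunit of the enzyme that removes RNA from DNA, by 0.70 ± 0.11 in CCl4 at day 28 (adjusted p = 4.82e-07 and 8.75e-05).

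Ung, the glycosylase that cuts uracil out of DNA, fell in CCl4 livers on both days and in DEN livers at day 84, relative to the 75th percentile of the array. At day 28 Ung had scaled signals of 1.97, 1.53 and 1.91 in CCl4 livers, 3.34, 3.45 and 2.95 in DEN livers, and 3.41, 3.46 and 3.16 in control livers. At day 84 Ung had 2.48, 2.68 and 2.34 in CCl4 livers, 3.17, 2.46 and 3.47 in DEN livers, and 5.69, 5.92 and 6.37 in control livers. At day 28 the CCl4 arrays lay below all others while DEN overlapped control, and at day 84 the CCl4 and DEN arrays overlapped, both far below control. Ung fell by 0.90 ± 0.12 on the log2 scale in CCl4 at day 28 (adjusted p = 3.44e-05), by 1.26 ± 0.12 in CCl4 at day 84 (adjusted p = 1.73e-06) and by 0.997 ± 0.12 in DEN at day 84 (adjusted p = 2.66e-05), with -0.05 ± 0.12 in DEN at day 28 (adjusted p = 0.832). With spike-in scaling the fall in CCl4 at day 84 was still called (-0.71, adjusted p = 0.000481), while CCl4 at day 28 (-0.10, adjusted p = 0.512) and DEN at day 84 (-0.29, adjusted p = 0.0705) were not. Dut, which removes dUTP before it can be built into DNA, rose where Ung fell.

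Of the 5 nucleotide supply genes 3 were raised by DEN at day 28, where 7.82% of all genes tested were higher. That was the largest share among the 7 role classes, but each class holds few genes, so a single call can change the order. All 5 genes rose in CCl4 livers on both days and in DEN livers at day 84, and Rrm2, Tyms and Dut already rose in DEN livers at day 28. Rrm2, the S phase subunit of ribonucleotide reductase, had the largest difference in CCl4 livers on both days and in DEN livers at day 84 among the genes well above background in the groups compared. At day 28 Rrm2 had scaled signals of 81.9, 76.2 and 65.7 in CCl4 livers, 16.6, 14.4 and 8.39 in DEN livers, and 6.89, 5.99 and 5.69 in control livers. At day 84 Rrm2 had 22.9, 23.01 and 34.6 in CCl4 livers, 19.9, 20.2 and 14.9 in DEN livers, and 2.005, 1.32 and 3.16 in control livers. The 3 groups separated on both days, and all 6 treated arrays at day 84 stood above every control array of either day. Rrm2 rose by 3.59 ± 0.29 (12.04-fold, adjusted p = 4.97e-07) in CCl4 and by 1.03 ± 0.29 (2.04-fold, adjusted p = 0.0315) in DEN at day 28. At day 84 it rose by 3.70 ± 0.29 (12.96-fold, adjusted p = 3.02e-07) in CCl4 and by 3.16 ± 0.29 (8.92-fold, adjusted p = 2.58e-06) in DEN. Its 3 other probes gave 3.18 to 4.07 for CCl4 at day 28 and 1.26 to 3.34 for DEN at day 84. The DEN call at day 28 ended without any 1 of the control arrays or without DEN rat 1 or 2 (adjusted p up to 0.130).

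Rrm1, the large reductase subunit, rose by 1.84 ± 0.16 (adjusted p = 8.34e-07) and 1.18 ± 0.16 (adjusted p = 2.53e-05) in CCl4 at day 28 and day 84. Tk1, the cytosolic thymidine kinase of S phase, rose with CCl4 on both days and with DEN at day 84. At day 28 Tk1 had scaled signals of 25.3, 25.5 and 17.5 in CCl4 livers, 7.12, 6.48 and 5.61 in DEN livers, and 6.49, 5.69 and 4.72 in control livers. At day 84 Tk1 had 11.8, 15.9 and 17.8 in CCl4 livers, 7.84, 8.71 and 7.12 in DEN livers, and 2.46, 2.33 and 3.15 in control livers. DEN and control overlapped at day 28, and the groups separated at day 84. Tk1 rose by 2.01 ± 0.19 (adjusted p = 1.48e-06) and 2.51 ± 0.19 (adjusted p = 1.94e-07) in CCl4 and by 1.58 ± 0.19 in DEN at day 84 (adjusted p = 1.78e-05), with 0.19 ± 0.19 in DEN at day 28 (adjusted p = 0.514).

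Tyms, thymidylate synthase, makes dTMP from dUMP, and it rose with both compounds on both days. At day 28 Tyms had scaled signals of 0.877, 1.03 and 0.727 in CCl4 livers, 0.895, 0.677 and 0.694 in DEN livers, and 0.382, 0.293 and 0.295 in control livers. At day 84 Tyms had 0.592, 0.626 and 0.651 in CCl4 livers, 0.901, 0.875 and 0.858 in DEN livers, and 0.308, 0.301 and 0.276 in control livers. At day 28 the CCl4 and DEN arrays overlapped, both above control, and at day 84 the DEN arrays stood above the CCl4 arrays. Tyms rose by 1.44 ± 0.14 (adjusted p = 1.66e-06) and 1.08 ± 0.14 (adjusted p = 1.40e-05) in CCl4 and by 1.22 ± 0.14 (adjusted p = 5.96e-05) and 1.57 ± 0.14 (adjusted p = 1.30e-06) in DEN at day 28 and day 84. CCl4 against DEN was 0.22 ± 0.14 at day 28 (adjusted p = 0.212) and -0.50 ± 0.14 at day 84 (adjusted p = 0.0122), the one gene of the 33 that was called lower with CCl4 at day 84. Dut rose in all 4 comparisons as well. At day 28 Dut had scaled signals of 16.7, 15.7 and 14.3 in CCl4 livers, 12.1, 9.41 and 9.37 in DEN livers, and 6.13, 5.59 and 5.36 in control livers. At day 84 Dut had 9.99, 10.7 and 11.9 in CCl4 livers, 10.8, 10.8 and 9.94 in DEN livers, and 4.75, 4.52 and 4.93 in control livers. At day 28 the groups separated, and at day 84 CCl4 and DEN overlapped above control. Dut rose by 1.45 ± 0.10 (adjusted p = 1.46e-07) and 0.85 ± 0.10 (adjusted p = 0.000126) with CCl4 and DEN at day 28, and by 1.19 ± 0.10 (adjusted p = 5.74e-07) and 1.15 ± 0.10 (adjusted p = 1.75e-06) at day 84.

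Chaf1b, a subunit of the chromatin assembly factor that puts histones on new DNA, behaved like the strongest replication genes. At day 28 Chaf1b had scaled signals of 5.64, 7.23 and 3.93 in CCl4 livers, 1.30, 1.03 and 0.798 in DEN livers, and 0.662, 0.603 and 0.657 in control livers. At day 84 Chaf1b had 4.16, 4.82 and 4.10 in CCl4 livers, 2.10, 2.74 and 1.78 in DEN livers, and 0.447, 0.481 and 0.710 in control livers. The groups kept the order CCl4, DEN, control without overlap on both days. Chaf1b rose by 3.09 ± 0.24 (adjusted p = 2.85e-07) and 3.02 ± 0.24 (adjusted p = 2.66e-07) in CCl4 at day 28 and day 84 and by 2.02 ± 0.24 in DEN at day 84 (adjusted p = 1.63e-05), with 0.68 ± 0.24 in DEN at day 28 not called (adjusted p = 0.0669).

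**Figure D2:**
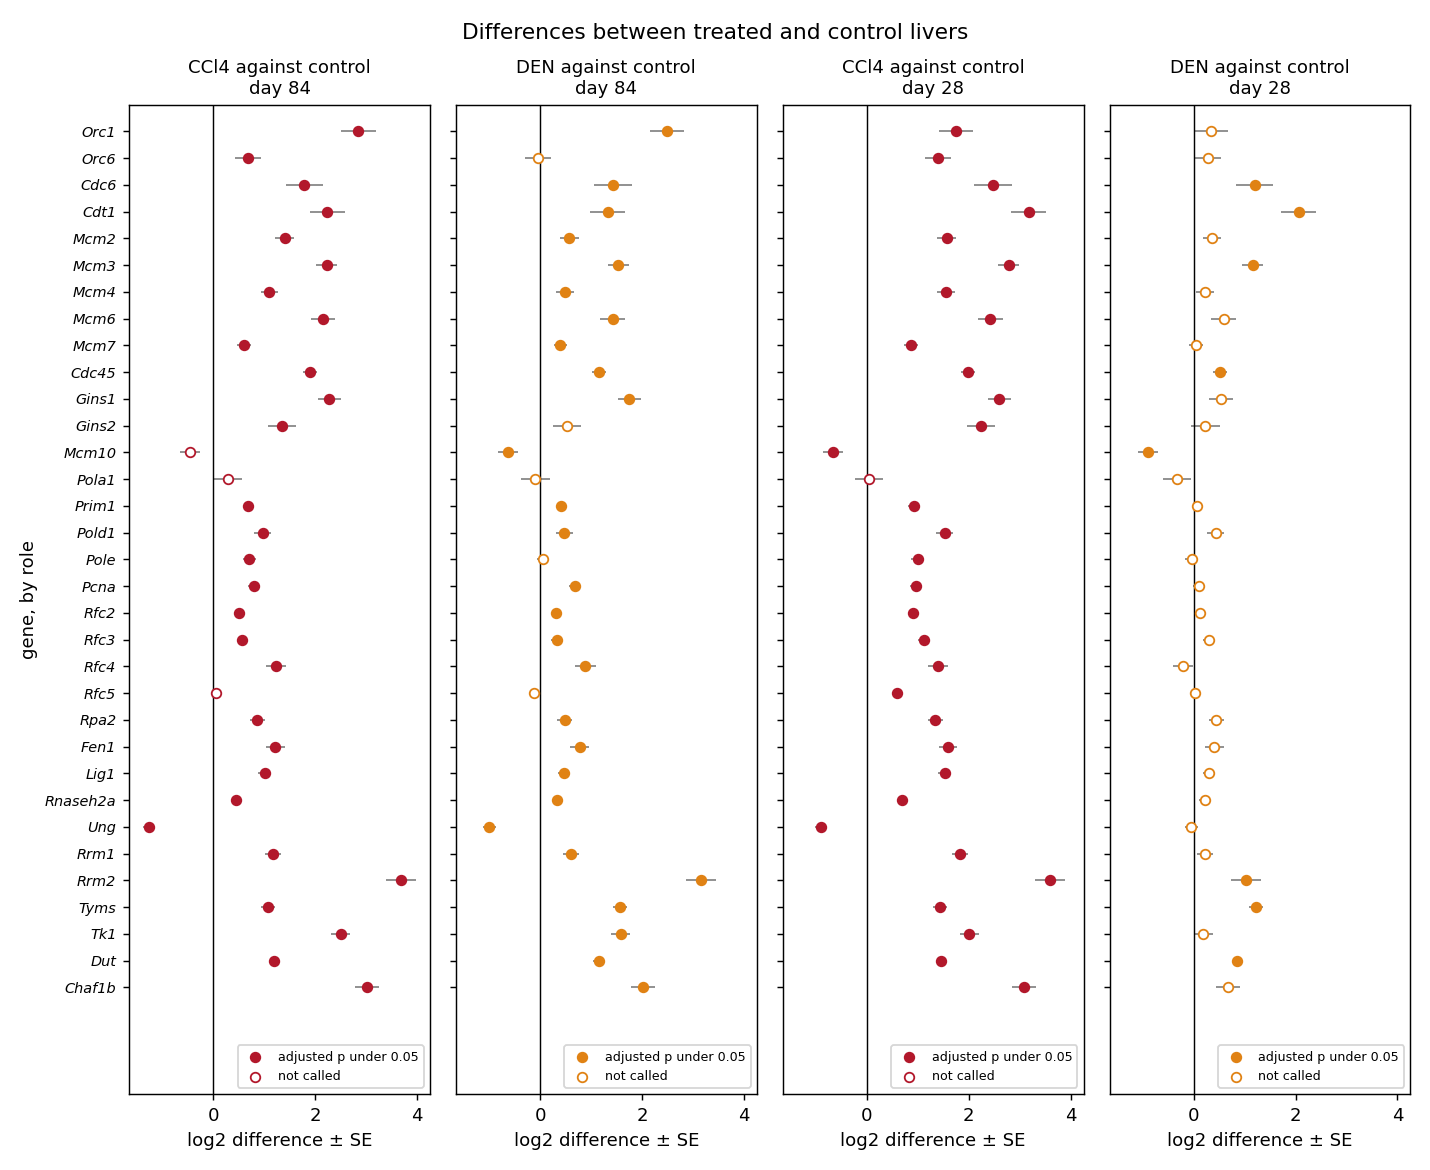
Log2 differences from control (horizontal axis, points with SE bars, n = 3 rats a group) of the 33 genes (vertical axis, by role) in CCl4 and DEN livers at day 84 and day 28, filled where the adjusted p is under 0.05. Filled points right of 0 number 29, 26, 30 and 7 from left to right, and Ung and Mcm10 lie left of 0 in every panel.

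CCl4 was above DEN for most of the set at day 28. Of the 33 genes 29 were called higher in CCl4 than in DEN and 1, Ung, lower, where 20.4% of all genes were higher and 24.7% lower (45.1% in either direction). The 29 include Orc1, Orc6, Cdc6 and Cdt1, which passed the filter through treated groups alone, so their difference is partly set by the filter. Among the 28 genes that passed it in a control group, 25 were higher and 1 lower. All 3 CCl4 arrays lay above all 3 DEN arrays for 29 genes (24.5% of all genes) and below for Ung (30.3%). With spike-in scaling 31 were higher and 1 lower (all genes 40.4% and 5.80%). The median difference was 1.13, and the largest among genes well above background in both groups was Rrm2 at 2.56 ± 0.29 (adjusted p = 2.02e-05), followed by Chaf1b at 2.41 ± 0.24 (adjusted p = 6.59e-06). Cdc6 and Cdt1 lost this call without CCl4 rat 2 or without DEN rat 3. Only Mcm10, Pola1 and Tyms were not called.

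At day 84 fewer genes differed between the compounds. Of the 33 genes 13 were higher in CCl4 and 1, Tyms, lower (all genes 18.5% higher, 15.8% lower, 34.3% in either direction), and the median difference was 0.44. Among the 28 genes that passed the filter in a control group, 12 were higher and 1 lower. The CCl4 arrays lay wholly above the DEN arrays for 23 genes (25.4% of all genes) and below for 1 (23.7%). The largest was Chaf1b at 1.002 ± 0.24 (adjusted p = 0.00519), and Tk1 followed at 0.92 ± 0.19 (adjusted p = 0.00196). The other 11 were Orc6, Mcm2, Mcm3, Mcm4, Mcm6, Cdc45, Gins2, Pold1, Pole, Lig1 and Rrm1, at 0.49 to 0.83. CCl4 rats 2 and 3 shared a slide that held no other group and had its own scan day. Fitting the slides as blocks left 6 genes called, the slide that held CCl4 rat 1 with the DEN and control rats gave 5 by itself, where the single CCl4 array is assumed to vary like the other groups, and with spike-in scaling 3 were higher and 2 lower (all genes 8.35% and 15.0%). The count was also 9 without CCl4 rat 1 or without DEN rat 3.

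The DEN effect grew between the days for part of the set. Against its control of the same day, DEN at day 84 minus DEN at day 28 was higher for 8 of 33 genes and lower for 1, with 7.64% of all genes higher and 8.41% lower (16.1% in either direction), and a median of 0.30. With spike-in scaling 6 were higher and 0 lower (all genes 7.10% and 0.706%). Orc1 gained 2.16 ± 0.48 (adjusted p = 0.0102), from signals not well above background in 3 of the 4 groups, and Rrm2 2.13 ± 0.42 (adjusted p = 0.00515). Tk1 gained 1.39 ± 0.26 (adjusted p = 0.00446), Chaf1b 1.34 ± 0.33 (adjusted p = 0.0171), Gins1 1.22 ± 0.32 (adjusted p = 0.0223) and Rfc4 1.11 ± 0.28 (adjusted p = 0.0188). The smaller gains were Cdc45 at 0.63 ± 0.20 (adjusted p = 0.0430) and Pcna at 0.59 ± 0.17 (adjusted p = 0.0288). The DEN effect on Ung was lower at day 84, by 0.95 ± 0.17 on the log2 scale (adjusted p = 0.00377). Its mean log2 signal changed little in DEN livers, 1.695 at day 28 and 1.585 at day 84, and went from 1.741 to 2.582 in controls. All DEN and control arrays of 1 day shared 1 slide. Without DEN day 84 rat 2 the count of genes called was 4.

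For Rrm2 and Tk1 the control level changed more between the days than the DEN level. The mean log2 signal of Rrm2 went from 3.66 at day 28 to 4.18 at day 84 in DEN livers, and from 2.63 to 1.02 in controls. That of Tk1 went from 2.67 to 2.975 in DEN livers and from 2.48 to 1.39 in controls. Control livers at day 84 against control at day 28 had 2 of 33 genes higher and 2 lower (all genes 4.44% higher, 5.32% lower, 9.77% in either direction), and 2 and 2 with spike-in scaling (3.26% and 1.15%). The day 84 controls lay wholly above the day 28 controls for 8 genes (14.3% of all genes) and below for 6 (21.6%). Rrm2 fell by 1.60 ± 0.29 on the log2 scale (adjusted p = 0.00405) and Tk1 by 1.09 ± 0.19 (adjusted p = 0.00266), while Ung rose by 0.84 ± 0.12 (adjusted p = 0.00110) and Cdt1 by 1.41 ± 0.34 from dim signals (adjusted p = 0.0186). The Cdt1 call ended without day 28 control rat 1 or day 84 control rat 3. The controls of the 2 days were on different slides, and once slides were fitted as blocks 0 of the 4 were called, so day and slide cannot be told apart for them. In absolute scaled signal Rrm2 in DEN livers was 14.9 to 20.2 at day 84 and 8.39 to 16.6 at day 28, ranges that overlap.

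The CCl4 effect at day 84 minus day 28 was lower for 1 gene, Rfc5, at -0.53 ± 0.14 (adjusted p = 0.0381), and higher for none (all genes 3.51% higher, 2.52% lower, 6.03% in either direction), with a median of -0.32. With spike-in scaling it was 0 and 0 (all genes 0.797% and 1.96%). This single call ended when any of 12 arrays was left out, and the count ran from 0 to 6 over such refits, 6 without CCl4 day 28 rat 3. A difference that was not called does not show that the effect was the same on both days.

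**Figure D3:**
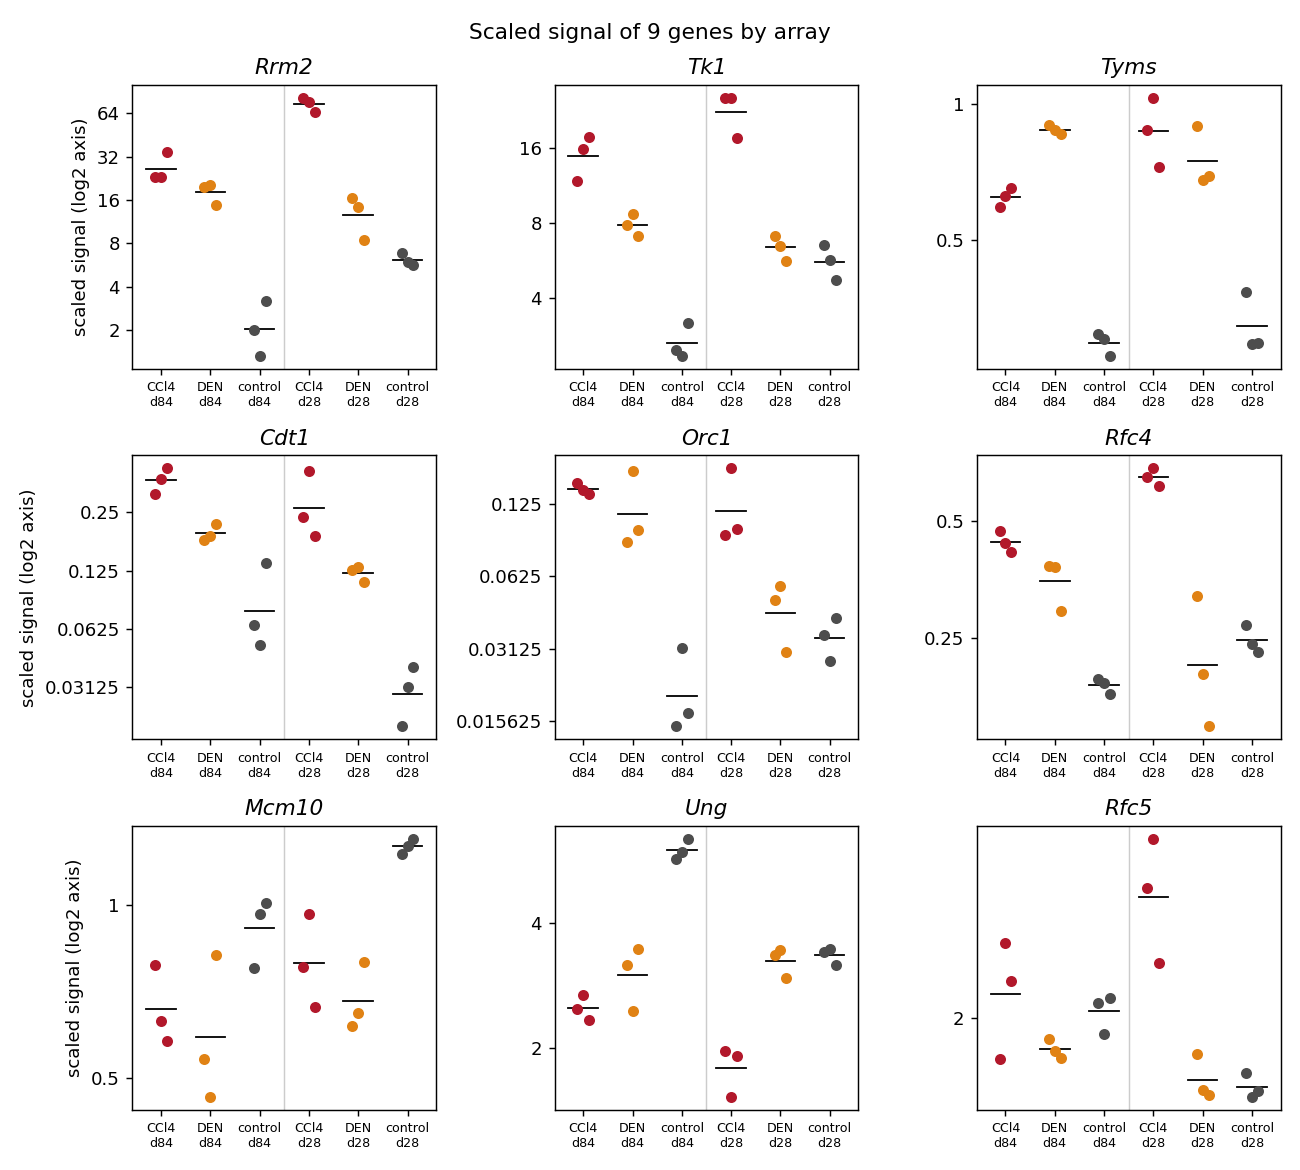
Scaled signal (vertical log2 axis, processed signal over the array's 75th percentile) of 9 genes in each array, with 3 rats per group as points and the group mean of log2 values as a line. Rrm2 in CCl4 livers spans 65.7 to 81.9 at day 28 and 22.9 to 34.6 at day 84, and its controls are lower at day 84 than at day 28, while Ung controls are higher at day 84.

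By the measured means of the 6 groups, dim ones included, CCl4 at day 28 had the highest mean for 24 of the 33 genes and CCl4 at day 84 for 6, and CCl4 at day 84 was second for 24. The lowest mean was in control at day 28 for 15 genes and in control at day 84 for another 15. Rats of 1 group also differed together. In CCl4 livers at day 28 rat 2 was the highest of the 3 for 28 of 33 genes and rat 3 the lowest for 30. The median of the set over control was 1.42, 1.89 and 1.23 in rats 1, 2 and 3. Rat 2 also had the lowest summed hepatocyte marker signal of the group, 2647 against 3354 and 3375, and the highest stellate cell sum, 39.9 against 17.3 and 17.8. In DEN livers at day 84 rat 2 was highest for 24 genes, with a median of 0.81 against 0.52 and 0.45, and its hepatocyte sum was 2654 against 3052 and 3114. In DEN livers at day 28 rat 1 was highest for 24 genes and rat 3 lowest for 29, with medians of 0.48, 0.36 and 0.16, while their hepatocyte sums were 4515, 4562 and 4565. In CCl4 livers at day 84 rat 1 had the lowest hepatocyte sum, 2870 against 3885 and 3249, and also the lowest median, 1.01 against 1.09 and 1.14. The part of cell composition in these differences was not tested. In CCl4 livers at day 28 rat 3 was on a different slide from rats 1 and 2. In CCl4 livers at day 84 rat 1 was on a different slide from rats 2 and 3, which had their own scan day. There rat and slide cannot be told apart. Leaving out CCl4 rat 2 at day 28 left 32 of 33 genes called in that comparison.

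Of the 33 genes, 16 had a further probe past the filter, 23 probes in all. Their sign was that of the chosen probe for all 23 in CCl4 at day 28, DEN at day 84 and CCl4 at day 84, and for 19 of 23 in DEN at day 28. The exceptions there were Cdt1 (-0.09), Rrm1 (-0.10) and the pair of further Mcm4 probes (-0.40 and -0.02). A shared sign does not mean a shared size. For DEN at day 84 the further Mcm4 probes gave 0.07 and 0.08, against 0.49 for the chosen probe. The median absolute gap to the chosen probe in that comparison was 0.16 on the log2 scale.

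Further genes of the pathway were read from a list of 92, of which 72 were tested. Without S phase regulators and mitosis genes, 55 were tested: 29 rose and 8 fell in CCl4 at day 28, 8 and 2 in DEN at day 28, 22 and 6 in CCl4 at day 84, and 22 and 4 in DEN at day 84, with medians of 0.41, 0.12, 0.14 and 0.23. The shares that rose were 52.7%, 14.5%, 40% and 40%, against 26.1%, 7.82%, 28.0% and 21.6% of all genes. The shares that fell were 14.5%, 3.64%, 10.9% and 7.27%, against 33.6%, 7.19%, 36.3% and 31.1%. Of the 55, Gmnn, Cdc7, Dbf4, Gins3, Wdhd1, Donson, Exo1 and Asf1b were not well above background on all arrays of either control group. They passed the filter through treated groups, so a rise in them is partly set by the filter, and the counts include them. Among 7 licensing genes was Gmnn, the inhibitor of Cdt1, with no control array well above background. It was at least 2.91-fold up in CCl4 at day 28 (adjusted p = 2.45e-07), 2.17-fold in CCl4 at day 84 (adjusted p = 3.50e-06) and 1.76-fold in DEN at day 84 (adjusted p = 5.08e-05), and was not called in DEN at day 28. The lowest were Mcmbp, an MCM-binding protein, which fell by 0.26 on the log2 scale in CCl4 (adjusted p = 0.0367) and by 0.32 in DEN at day 28 (adjusted p = 0.0436), and Orc2, at -0.20 and -0.20 in CCl4 and DEN at day 84, not called. Firing and fork genes rose for 8 of 9 in CCl4 at day 28. The highest among those well above background in controls was Recql4, a helicase of origin firing, at 2.85 ± 0.26 (adjusted p = 1.10e-06), 0.92 ± 0.26 in DEN at day 28 (adjusted p = 0.0291) and 2.38 ± 0.26 in CCl4 at day 84 (adjusted p = 3.71e-06). Dbf4, the activator of the Cdc7 kinase, was at 1.79 ± 0.65 in DEN at day 84 (adjusted p = 0.0336), with 1 of 3 control arrays well above background. The lowest of this class were Tipin, at 0.52 in CCl4 at day 28 (adjusted p = 0.000874) and 0.13 in DEN at day 84, Timeless at 0.20 in DEN at day 28 and Donson at 0.14 in CCl4 at day 84, the last 3 not called.

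Among 6 further polymerase subunits Pold2 rose in all 4 comparisons, by 1.32 ± 0.16 in CCl4 at day 28 (adjusted p = 1.60e-05), and the lowest values were Pold4 at -0.30 in CCl4 at day 28 (adjusted p = 0.0346), Pole4 at -0.16 in DEN at day 28, Pole3 at -0.24 in CCl4 at day 84 (adjusted p = 0.00498) and Pold3 at -0.32 in DEN at day 84 (adjusted p = 0.0437). Clamp loaders diverged. Chtf18, of the loader for sister chromatid cohesion, rose by 2.21 ± 0.17 in CCl4 at day 28 (adjusted p = 3.56e-07). Rfc1, the large subunit of the replicative loader, fell by 0.58 ± 0.07 on the log2 scale in CCl4 at day 28 (adjusted p = 1.74e-05), by 0.85 in CCl4 at day 84 (adjusted p = 5.83e-07) and by 0.73 in DEN at day 84 (adjusted p = 5.24e-06), and Chtf8 was at -0.16 in DEN at day 28, not called. Exo1, an exonuclease, was at least 7.30-fold up in CCl4 (adjusted p = 3.43e-05) and at least 3.14-fold in DEN at day 28 (adjusted p = 0.0132), and Top1, topoisomerase I, fell by 0.39 and 0.48 (adjusted p = 0.0277 and 0.0357), with -0.17 and -0.17 at day 84 not called.

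In nucleotide supply 9 of 17 further genes rose and 4 fell in CCl4 at day 28, and 10 rose and 2 fell in DEN at day 84. Of all genes 26.1% were higher and 33.6% lower in the former comparison, and 21.6% and 31.1% in the latter. Dctd, dCMP deaminase, rose by 2.56 ± 0.20 in CCl4 (adjusted p = 3.46e-07) and 0.75 ± 0.20 in DEN (adjusted p = 0.0245) at day 28 and by 2.36 ± 0.20 in CCl4 at day 84 (adjusted p = 5.72e-07). Impdh1, which opens guanine nucleotide synthesis, led in DEN at day 84 at 2.06 ± 0.25 (adjusted p = 2.39e-05). Shmt2, the mitochondrial enzyme that feeds one-carbon units, fell by 0.75 and 0.84 on the log2 scale in CCl4 at day 28 and day 84 (adjusted p = 0.000346 and 0.000121), with -0.38 in DEN at day 28 not called. Samhd1, which breaks down dNTPs, fell by 0.30 in DEN at day 84 (adjusted p = 0.0350). Histone chaperones were led by Asf1b, at least 3.22-fold up in CCl4 at day 28 (adjusted p = 3.45e-05) and 0.88 ± 0.26 at day 84 (adjusted p = 0.00920), and by Asf1a in DEN at day 84 at 0.61 ± 0.11 (adjusted p = 0.000566). In DEN at day 28 Asf1b was not called, over controls not above background. The lowest, none called, were Rbbp4 at -0.12 and -0.03 in CCl4 at day 28 and day 84, Rbbp7 at -0.15 in DEN at day 28 and Dnmt1 at -0.22 in DEN at day 84.

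S phase regulators rose for 8 of 12 in CCl4 at day 28, 4 in DEN at day 28, 8 in CCl4 at day 84 and 7 in DEN at day 84. Of all genes 26.1%, 7.82%, 28.0% and 21.6% were higher in these comparisons. Mybl2 and Ccne2 had no control array well above background, so a rise in them is partly set by the filter. Mybl2, a transcription factor of the S phase and mitosis programme, led in DEN, at least 44.1-fold up at day 28 (adjusted p = 2.15e-08) and at least 16.03-fold at day 84 (adjusted p = 3.60e-08). Ccna2, cyclin A2, led in CCl4 among the genes above background in controls, at 3.75 ± 0.31 (adjusted p = 6.11e-07) and 3.44 ± 0.31 (adjusted p = 9.52e-07) at day 28 and day 84. The lowest were Cdkn1a, the cyclin kinase inhibitor p21, down by 0.61 in CCl4 at day 28 (adjusted p = 0.000669), Cdk2 down by 0.79 in CCl4 at day 84 (adjusted p = 0.000130), and E2f3 down by 0.44 and 0.81 in DEN at day 28 and day 84 (adjusted p = 0.0141 and 3.44e-05). All 5 mitosis genes rose with CCl4 on both days and with DEN at day 84, and 3 of 5 with DEN at day 28. They ran between Aurka, at 2.79 ± 0.14, 1.67 ± 0.14 and 1.13 ± 0.14 in CCl4 at day 28, CCl4 at day 84 and DEN at day 84, and Ccnb1 at 3.79 ± 0.33 in CCl4 at day 28 or Cdk1 at 3.56 ± 0.29 and 2.85 ± 0.29 in CCl4 and DEN at day 84. With spike-in scaling the falls of Mcmbp, Pold4, Rfc1, Top1, Shmt2 and Cdkn1a in CCl4 at day 28, Mcmbp in DEN at day 28, Pole3 in CCl4 at day 84, and Pold3 and Samhd1 in DEN at day 84 lay on the other side of 0. In DEN at day 28 the mitosis genes that rose ran from Aurka at 0.68 ± 0.14 to Plk1 at 0.93 ± 0.29 (adjusted p = 0.00580 and 0.0433).

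**Figure D4:**
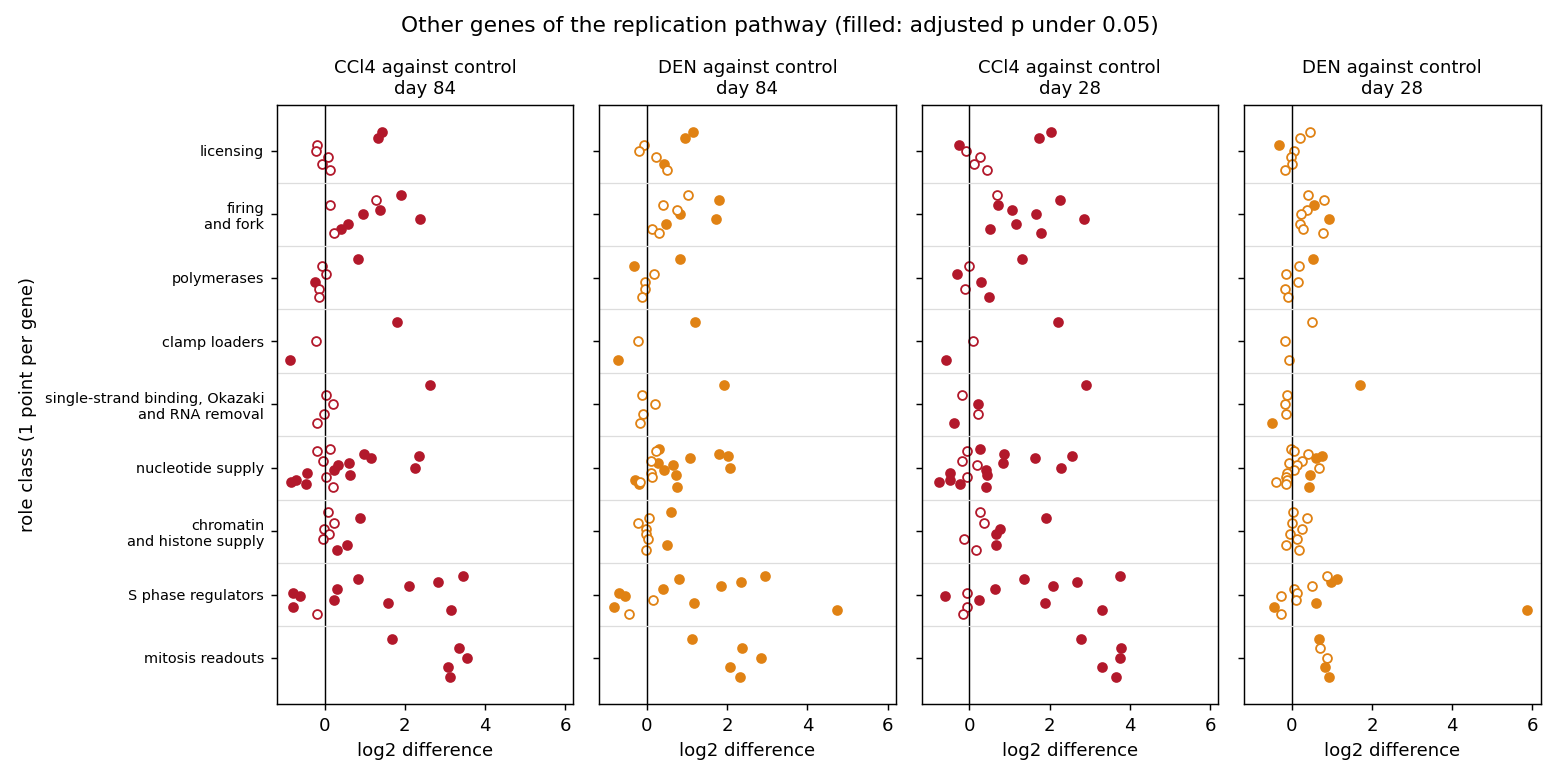
Log2 differences from control (horizontal axis, 1 point per gene) of the 72 further genes tested, by role class (vertical axis), in CCl4 and DEN livers at day 84 and day 28, filled where the adjusted p is under 0.05. Firing and mitosis genes lie right of 0 in all panels, and other classes lie on both sides.

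Cell type markers also differed between the groups, in patterns that varied by cell type and did not all follow the replication genes. Their counts stand beside all genes, of which 26.1%, 7.82%, 28.0% and 21.6% rose and 33.6%, 7.19%, 36.3% and 31.1% fell in CCl4 at day 28, DEN at day 28, CCl4 at day 84 and DEN at day 84. In lists of 3 to 7 genes, 2 or 3 calls in CCl4 or in DEN at day 84 are not far from these shares. Hepatocyte markers fell for 7 of 7 in CCl4 at day 28, 1 in DEN at day 28, 6 in CCl4 at day 84 and 6 in DEN at day 84. Their summed scaled signal was 2647 to 3375 in CCl4, 4515 to 4565 in DEN and 5250 to 5541 in control livers at day 28, and 2870 to 3885, 2654 to 3114 and 4430 to 4689 at day 84. Lymphocyte markers rose for 4 of 7 in CCl4 at day 28, DEN at day 28 and CCl4 at day 84 and 1 in DEN at day 84. Their sum was 6.32 to 9.16 in CCl4, 6.12 to 6.91 in DEN and 3.21 to 4.10 in control livers at day 28, and 7.18 to 7.95, 4.20 to 5.08 and 3.45 to 4.27 at day 84. Stellate cell markers rose for 3 of 5 in CCl4 at day 28, 4 in CCl4 at day 84, 1 in DEN at day 84 and none in DEN at day 28. Their sum was 17.3 to 39.9, 9.90 to 11.3 and 7.55 to 12.2 in CCl4, DEN and control livers at day 28, and 19.3 to 30.3, 8.35 to 10.2 and 6.33 to 7.66 at day 84. Cholangiocyte and ductular markers rose for 2 of 4 in CCl4 at day 28, none in DEN at day 28, 4 in CCl4 at day 84 and 3 in DEN at day 84. Their sum was 4.86 to 9.96, 2.12 to 2.40 and 1.74 to 2.28 in CCl4, DEN and control at day 28, and 6.83 to 9.11, 4.33 to 7.74 and 1.47 to 1.79 at day 84.

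Macrophage markers rose for 3 of 7 and fell for 2 in CCl4 on each day, and rose for 2 in DEN on each day. Their sum was 96.4 to 117, 150 to 160 and 121 to 156 in CCl4, DEN and control at day 28, and 76.3 to 111, 88.8 to 113 and 119 to 140 at day 84. A sum adds probes of unequal brightness and follows the brightest, here Clec4f, which alone had 24.3 to 36.5 in CCl4, 114 to 121 in DEN and 96.6 to 125 in control at day 28. Gpnmb rose by 3.42 ± 0.18 in CCl4 at day 28 (adjusted p = 1.10e-08) while that sum was lower. Neutrophil markers rose for 3 of 3 in CCl4 at day 84, with sums of 1.67 to 3.87, 0.769 to 1.63 and 0.929 to 1.07 in CCl4, DEN and control, and for none in the other comparisons. Endothelial markers fell for 2 of 3 in CCl4 on each day and in DEN at day 84, and 2 of 3 erythroid markers fell in those comparisons. Moves against these were 1 lymphocyte marker that fell in CCl4 and 1 in DEN at day 84, 1 stellate cell marker that fell in DEN at day 84, 1 endothelial marker that rose in DEN at day 28 and 1 erythroid marker that rose in CCl4 at day 84. In CCl4 at day 28 the first 3 tested of each list were Alb -1.08, Ttr -0.92 and Apoa1 -0.38 for hepatocytes, Cd3d 1.63, Cd3e 1.10 over controls not above background, and Cd3g 1.51 for lymphocytes, and Cd68 0.78, Clec4f -1.78 and Cd163 -0.89 for macrophages. For stellate cells they were Acta2 1.83, Des 1.88 and Pdgfrb 0.48, for ductular cells Krt19 0.66, Krt7 0.68 and Epcam 0.68, for neutrophils S100a8 0.03 and S100a9 -0.14, for endothelium Pecam1 -0.29 and Lyve1 -0.27, and for erythroid cells Alas2 -1.73 and Hbb -1.45, on the log2 scale. Of these Cd3e, Pdgfrb, Krt19, Krt7, S100a8, S100a9 and Lyve1 were not called. The hepatocyte markers were well above background on every array. Csf3r was not above background on any array of 4 groups, Cd3e in control at day 28 and Trem2 in control at day 84. The part of these cell types in the replication genes was not tested.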

How the data were processed

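Total RNA of 18 livers was labelled with Cy3 and hybridised 1 array per rat, per the labels' protocols, and the file headers name Agilent Feature Extraction, version 10.7.1.1, as the reading program. The deposited scanner files give intensity per spot, and the processed signal used here is already background-corrected by that program. The deposited value table holds the authors' ratio of that signal to 1 constant per array, within 0.01 on the log2 scale; its scale and direction match the scanner values, its column medians were 0.0852 to 0.0978, the constant's definition is unknown, and it served as an alternative.

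Control spots (1439 of 62976) and 18 probes with an outlier flag were left out, and no probe was saturated. From the intensity, log2 of the processed signal minus the array's 75th percentile was computed. Of 61537 probes, 28206 matched 1 gene through RefSeq accessions and 33331 were not matched. A probe stayed in (18679 did) if some group had it well above background in all its 3 rats, and 1 probe per gene gave 10914 genes. Without the filter 15642 of the 15645 matched genes were tested, and with a filter on all arrays 9239.

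All groups were fitted in 1 model with limma 3.58.1 (lmFit, eBayes; R 4.3.3; residual degrees of freedom 12, with prior 14.06), with Benjamini-Hochberg adjustment and a threshold of 0.05. The test was tested on simulated data. The labels call the 3 arrays of a group separate rats. The members and all lists were chosen with earlier results of these data known. Named genes followed a rule: per role class and by fitted value, dim probes included, values by array for the largest and smallest difference in CCl4 at day 28, the largest in DEN on each day and any gene apart from its class, the largest and smallest per class of the further list, and the first 3 of each marker list. Alternatives were normexp with an offset of 50, 2 other filters, median, quantile and spike-in scaling, slide and replicate blocks, 1 slide alone, the compared groups alone, the mean of all probes, the authors' table, the next brightest probe (added after the data were seen) and each array left out. The day 28 and day 84 DEN and control arrays each lay on 1 slide, with CCl4 rats 1 and 2 of day 28 beside those of day 28. The second slide also held CCl4 rat 3 of day 28 and rat 1 of day 84, and the third held CCl4 rats 2 and 3 of day 84.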

Additional observations from a re-analysis of the deposited data

Results flagged for a closer look

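For 10 genes the effect of a compound against its own day's control differed between day 84 and day 28 by a test of that difference (limma, adjusted over 10914 genes, n = 3 rats a group). With DEN the effect was larger at day 84 for Orc1, the origin recognition subunit, by 2.16 ± 0.48 on the log2 scale (adjusted p = 0.0102), and for Rrm2 by 2.13 ± 0.42 (adjusted p = 0.00515). Tk1 differed by 1.39 ± 0.26 (adjusted p = 0.00446), Chaf1b by 1.34 ± 0.33 (adjusted p = 0.0171) and Gins1 by 1.22 ± 0.32 (adjusted p = 0.0223). Rfc4 differed by 1.11 ± 0.28 (adjusted p = 0.0188), Cdc45 by 0.63 ± 0.20 (adjusted p = 0.0430) and Pcna by 0.59 ± 0.17 (adjusted p = 0.0288). For Ung the difference was -0.95 ± 0.17 (adjusted p = 0.00377). From day 28 to day 84 its mean log2 signal went from 1.695 to 1.585 in DEN livers and from 1.741 to 2.582 in controls. With CCl4 the difference was -0.53 ± 0.14 for Rfc5 (adjusted p = 0.0381). No single array ended the calls of Orc1, Ung, Rrm2 and Tk1. Chaf1b and Rfc4 lost theirs without DEN day 84 rat 2, Gins1 without any of 4 arrays, Pcna 7, Rfc5 12 and Cdc45 13. For Orc1 only DEN at day 84 was well above background among the 4 groups of this difference. The 3 arrays of a group are too few for a search for single arrays that stand apart.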

How the results depend on the processing

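Counts of the 33 genes called stayed within 1.5 times for CCl4 against control at day 28 (32 as given above, 26 to 32 over 13 other settings), DEN at day 84 (28, 24 to 29), CCl4 at day 84 (30, 25 to 32) and CCl4 against DEN at day 28 (30, 24 to 32), and for the DEN effect between days (9, 6 to 9 over 12). DEN at day 28 gave 8 genes, with 5 after normexp, 21 with spike-in scaling and 5 on 1 slide. CCl4 against DEN at day 84 gave 14, with 5, 6 and 5 under spike-in scaling, a slide block and 1 slide. Control at day 84 against day 28 gave 4, and 0 with a slide block. The CCl4 effect between days gave 1, with 4 after normexp, 0 with no filter, 2 with the filter on all arrays, 3 with median scaling, 0 with spike-in scaling, 4 with a slide block, 0 with a replicate block, 0 with only the groups compared, 2 with the mean of all probes and 2 with the next brightest probe. The 1-slide values at day 84 rest on 1 CCl4 array, assumed to vary like the other groups. No slide held both days' groups, so no 1-slide value exists for the day comparisons.

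Leaving out 1 array gave 5 to 13 genes for DEN at day 28 (5 without control rat 1, control rat 3 or DEN rat 2, 13 without CCl4 rat 2), 32 to 32 for CCl4 at day 28, 20 to 29 for DEN at day 84, 29 to 31 for CCl4 at day 84, 28 to 31 and 9 to 20 for CCl4 against DEN at day 28 and day 84, 4 to 11 for the DEN effect, 0 to 6 for the CCl4 effect and 3 to 5 for control. Without DEN day 84 rat 2, Mcm2, Mcm4, Mcm7, Mcm10, Pold1, Rfc3, Rpa2 and Rnaseh2a lost their DEN call of day 84. Control arrays ended the same calls: all of these but Rnaseh2a without control day 84 rat 2, and Mcm7, Mcm10, Rfc3 and Rnaseh2a without control day 84 rat 3.

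Signs turned with normexp, whose offset of 50 is added before scaling, for dim probes: Cdc6 -0.11 (DEN, day 28) and -0.0857 (DEN, day 84), Orc1 -0.0288 and Orc6 -0.0451 (CCl4, day 28), Orc6 -0.14 (CCl4, day 84), Pola1 -0.40 and -0.32 (CCl4, day 28 and day 84) and Cdt1 -0.0037 (control between days). With the next brightest probe Cdt1 turned to -0.0949 (DEN, day 28) and 1.69 (DEN effect), and Fen1 to 1.17 (control between days). With spike-in scaling, which raises the median of all genes, values turned at CCl4 day 28 for Mcm10 (0.13), Mcmbp (0.54), Pold4 (0.50), Rfc1 (0.22), Top1 (0.41), Shmt2 (0.0504), Rbbp4 (0.68), Cdkn1a (0.19), Apoa1 (0.42), Pecam1 (0.51) and Lyve1 (0.53). They turned at DEN day 84 for Mcm10 (0.0758), Rfc5 (0.59), Orc2 (0.50), Pold3 (0.38), Top1 (0.53) and Samhd1 (0.40), at CCl4 day 84 for Pole3 (0.31) and Rbbp4 (0.52), and at DEN day 28 for Mcmbp (0.0827). Quantile normalization turned Rbbp4 to 0.24 (CCl4, day 84) and Apoa1 to 0.0468 (CCl4, day 28). The cause of these changes was not tested. Rats with the same number in different groups share a number only: their deviations correlated at -0.135 to 0.13, and with the number as a replicate block 9, 32, 28, 30, 30, 14, 9, 0 and 5 genes were called in the order DEN and CCl4 at day 28, DEN and CCl4 at day 84, CCl4 against DEN at day 28 and day 84, the DEN effect, the CCl4 effect and control. Probes near background (Orc1, Orc6, Cdc6, Cdt1, Gins2, Pola1) give bounds at most.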

Other observations

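Mybl2, singled out after its values were seen, was higher in DEN than in CCl4 livers, unlike most of the replication genes at day 28. Mybl2 belongs to the MYB family and drives genes of S phase and mitosis. Its scaled signals at day 28 were 0.502, 0.869 and 0.545 in CCl4 livers, 4.57, 3.03 and 3.51 in DEN livers, and 0.0758, 0.0510 and 0.0636 in control livers. At day 84 they were 0.414, 0.355 and 0.404 in CCl4 livers, 1.40, 0.896 and 1.31 in DEN livers, and 0.0612, 0.0498 and 0.0284 in control livers. Each DEN array stood above each CCl4 array on its day, and no control array was well above background. CCl4 against DEN was -2.56 ± 0.28 at day 28 (adjusted p = 1.52e-05) and -1.60 ± 0.28 at day 84 (adjusted p = 0.000756) in the limma fit. There 29 and 13 of the 33 replication genes were higher in CCl4, as were 20.4% and 18.5% of all genes. Of the 28 replication genes that passed the filter in a control group, 25 and 12 were higher. The day 84 count of replication genes called, 14 in either direction, ran from 5 to 17 over 13 other settings. Its 2 other probes gave -1.62 and -1.59 at day 28 and -0.99 and -0.71 at day 84. The DEN effect on Mybl2 at day 84 minus day 28 was -1.12 ± 0.40, not called (adjusted p = 0.0700).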
